A study of Mus musculus with 22 samples.

Results

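Carbonic anhydrases are enzymes that interconvert carbon dioxide and water with bicarbonate and a proton. The 5 family members described here are Car2, Car3, Car5a, Car8 and Car14, picked by gene symbol from the 23227 genes with mRNA counts and the 23167 gene promoters with H3K27ac counts. Their mRNA and promoter values on the 2 diets were used in that choice, and Car3 was taken for a large difference in mRNA beside little difference at its promoter. For the 5 members, levels and fold changes on both measurements are therefore given as a description, with no p-value, and all 5 passed the filter on low counts in both. Where counts of members past a threshold are listed, nothing is read from them.

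The livers came from wild-type C57BL/6J mice killed at 24 weeks of age after a fast overnight. One group ate standard chow (Prolab Isopro RMH) throughout, and the other ate a high-fat diet (S3282) for 16 weeks from 8 weeks of age. The series holds 22 samples, of which 3 mRNA libraries and 3 H3K27ac libraries per diet are used here. H3K27ac is acetylation of histone H3 at lysine 27, a mark of active promoters and enhancers. The labels give neither the sex of the mice nor whether replicates came from separate animals, so p-values measure the spread between these samples, which may be technical. Diet and any handling that differed between the diet groups cannot be told apart.

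Family members differ in where they act. Car2 is the fast cytosolic enzyme found in many tissues, while Car3 is a cytosolic enzyme of low activity that is abundant in skeletal muscle, adipose tissue and liver. Car5a lies in the mitochondrial matrix of hepatocytes, where bicarbonate is a substrate of carbamoyl phosphate synthetase (Cps1) and pyruvate carboxylase (Pcx). Car14 is a transmembrane enzyme whose catalytic domain faces the outside of the cell. Car8 is a carbonic anhydrase-related protein that has lost catalytic activity.

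The promoters of Car5a and Car14 are shown because a promoter sequence was at hand for these members only. The mRNA of both was higher on the high-fat diet and H3K27ac was counted at their promoters, which also held for Car3 and Car8. Car5a and Car14 were the 2 of 5 members with an entry among 32851 RefSeq promoter windows of 300 bases (build GRCm38.p6, 250 bases before to 50 after the start). The 5 motifs of a fixed list were searched on both strands, and capitals mark matches. The motifs and their shares of all windows were TATAAA (13.6%), CCAAT (37.4%), CACGTG (7.15%), AGGTCA (16.3%) and TTCNNNGAA (8.3%). None of these motifs overlapped another in the sequences printed. Car5a lies at chr8:121944863-121945162 and Car14 at chr3:95904636-95904935, both on the minus strand.
Car5a: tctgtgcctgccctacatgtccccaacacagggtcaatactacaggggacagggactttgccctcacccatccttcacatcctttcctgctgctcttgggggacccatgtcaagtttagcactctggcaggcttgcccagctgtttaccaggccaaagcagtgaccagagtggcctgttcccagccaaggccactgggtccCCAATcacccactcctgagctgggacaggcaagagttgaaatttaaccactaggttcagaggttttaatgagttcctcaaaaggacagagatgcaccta
Car14: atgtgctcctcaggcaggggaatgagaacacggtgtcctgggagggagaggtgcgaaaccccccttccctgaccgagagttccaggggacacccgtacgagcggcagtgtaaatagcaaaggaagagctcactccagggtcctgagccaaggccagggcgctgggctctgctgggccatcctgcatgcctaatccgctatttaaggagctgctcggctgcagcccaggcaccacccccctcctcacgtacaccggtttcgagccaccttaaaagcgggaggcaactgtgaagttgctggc
The Car5a window held 1 match, CCAAT on the strand of the gene, beginning 49 bases before the start, and the Car14 window held none of the 5 motifs. The Car14 window was richer in G and C (61% against 53.7% for Car5a, with a median of 52.7% over all windows) and held 13 CG dinucleotides against 0 in Car5a. The start used for Car14 lay 432 bases inside the annotated gene. These files count reads on another build, mm9, and the window in which the authors counted promoter reads is not given in the sources used here.

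mRNA of 4 members, Car3, Car5a, Car8 and Car14, was higher on the high-fat diet and that of Car2 was not separated between diets. Levels are CPM, counts scaled to a library total of 1000000 after trimmed-mean (TMM) correction, and differences are log2 fold changes, high-fat diet over chow, from edgeR's quasi-likelihood fit. With edgeR, 4 of 5 members were past an adjusted p of 0.05, all higher, where 35.6% of the 12909 genes tested were past it in either direction and 18.0% were higher. The median log2 fold change was 0.54 over the 5 members and 0.02 over all genes tested. Nothing is read from that count or from those medians, since the choice of members used this contrast. Of all genes called, 50.5% were higher, or 63.0% when total counts replaced trimmed-mean scaling. In whole-liver RNA, fewer cells of a type and less RNA per cell cannot be told apart.

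**Figure D1:**
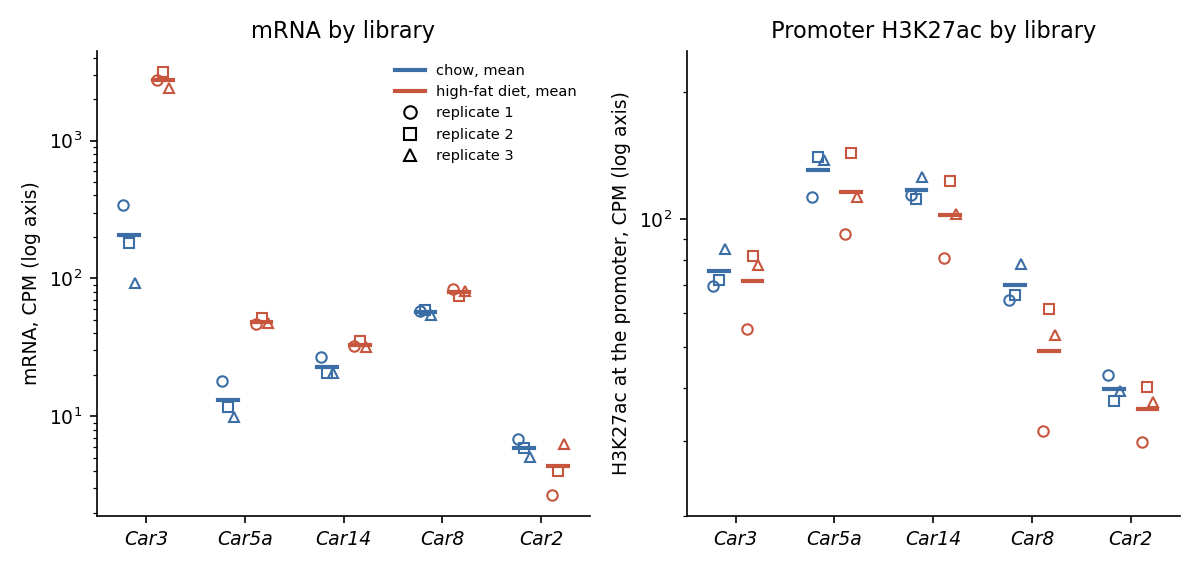
Levels of the 5 members by library, mRNA on the left and H3K27ac reads at the promoter on the right, both in CPM on log axes. Each symbol is 1 library and each bar the mean of 3. Car3 mRNA lies between 92.0 and 342 CPM on chow and between 2399.6 and 3149 CPM on the high-fat diet, while its promoter values overlap.

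Car3 had the largest difference of the 5. Its mRNA level was 342, 181 and 92.0 CPM in chow replicates 1, 2 and 3, and 2734, 3149 and 2399.6 CPM in high-fat-diet replicates 1, 2 and 3. Every high-fat-diet library was above every chow library, a separation in the higher direction that 25.1% of tested genes showed. The means were 205 ± 127 CPM on chow and 2761 ± 375 CPM on the high-fat diet (SD, n = 3 each). The log2 fold change was 3.75 (SE 0.43, 95% interval 2.76 to 4.74), a 13.4-fold higher level. By size of increase Car3 stood 18th of the 12909 genes. Its share of all mRNA counts was 0.009% to 0.0331% on chow and 0.256% to 0.336% on the high-fat diet.

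For Car3, the chow libraries differed from each other far more than the high-fat-diet libraries did. The SD of log2 CPM for Car3 was 0.95 over the chow libraries, above that of 99.3% of tested genes, and 0.20 over the high-fat-diet libraries, above that of 59.4%. Chow replicate 1 was the highest and chow replicate 3 the lowest. Without chow replicate 1 the log2 fold change was 4.34 (SE 0.34), and without chow replicate 3 it was 3.38 (SE 0.31). Leaving out any one high-fat-diet library gave values from 3.64 to 3.84.

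Markers of skeletal muscle, a tissue rich in Car3, stood out in 1 chow library. The summed level of 10 muscle genes was 157.8 CPM in chow replicate 1, 1.34 and 0.81 CPM in the other chow libraries, and 0.49 to 1.07 CPM on the high-fat diet, with 3 of the 10 at 0 in every high-fat-diet library. Without that library the Car3 log2 fold change was 4.34, beside 3.75 with all libraries; the part of muscle RNA in the Car3 levels was not tested. For adipose tissue, also rich in Car3, the summed level of 10 marker genes was 23.0 to 29.5 CPM on chow and 46.2 to 51.7 CPM on the high-fat diet. Cfd alone made up a large part of that difference, with means of 1.10 CPM on chow and 13.2 CPM on the high-fat diet. Of the 5 adipocyte markers tested, 2 rose and 0 fell, where 18.0% of all tested genes rose and 17.6% fell. The 2 were Cfd by 3.41 (SE 0.50, edgeR adjusted p = 0.0015) and Lipe by 0.40 (SE 0.10, edgeR adjusted p = 0.0138) on the log2 scale. Lipe was not past the threshold without chow replicate 3 (adjusted p = 0.0656). The defining marker Adipoq, the adipokine adiponectin, had 30 counts over the chow libraries and 11 over the high-fat-diet libraries. Its means were 0.288 ± 0.226 CPM on chow and 0.152 ± 0.115 CPM on the high-fat diet (SD, n = 3 each), with overlap. Plin1, which coats fat-cell lipid droplets, had 12 and 4 counts, and Lep, the hormone leptin, had 1 and 9. The other markers with too few reads to test were Aqp7, with 41 and 18 counts, and Retn, with 9 and 2. These pooled counts are not scaled for depth, and chow replicate 1 was the deepest mRNA library (45741794 counts). The part of adipose RNA in the Car3 result was not tested. Digestive enzymes of the exocrine pancreas summed to 2075, 907 and 341 CPM in chow replicates 1, 2 and 3 and to 10.3 to 200.1 CPM on the high-fat diet. Of the 12 pancreas genes tested, 0 rose and 10 fell, where 17.6% of all tested genes fell, and the part of pancreas RNA in these results was not tested.

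**Figure D2:**
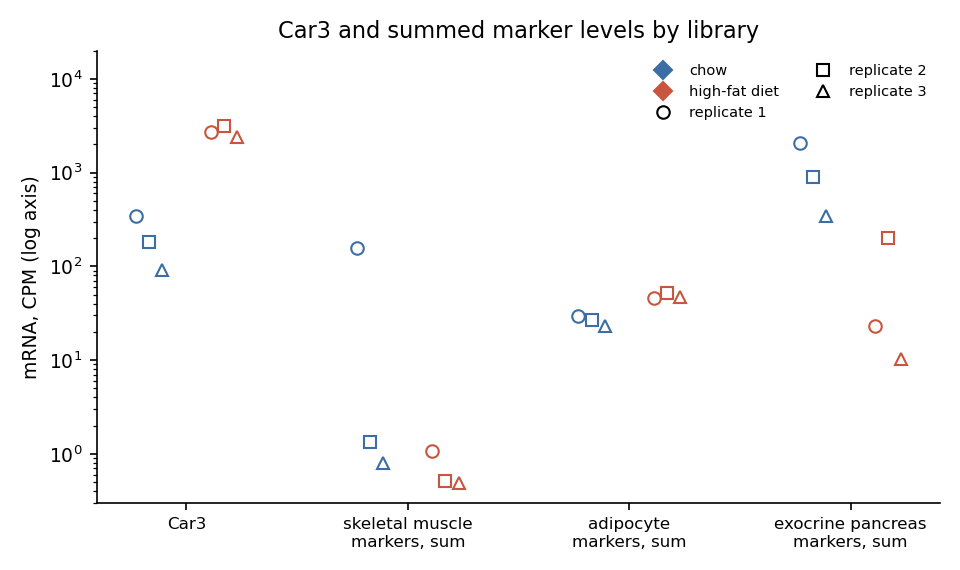
Car3 mRNA and summed mRNA levels of marker genes for 3 other tissues by library, in CPM on a log axis, each symbol 1 library. Muscle markers reach 157.8 CPM in chow replicate 1 alone, and pancreas markers are higher in every chow library (341 to 2075 CPM) than on the high-fat diet.

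At the Car3 promoter the diets were not separated. H3K27ac was 69.7, 72.1 and 85.0 CPM in chow replicates 1, 2 and 3, and 55.1, 81.9 and 78.2 CPM in high-fat-diet replicates 1, 2 and 3. The lowest library was high-fat-diet replicate 1 and the ranges overlapped. The log2 fold change was -0.05 (SE 0.11, 95% interval -0.28 to 0.19), which spans a fall and a rise. It was 0.07 without high-fat-diet replicate 1 and 0.06 without chow replicate 3, and -0.15 without high-fat-diet replicate 2. Across 12791 genes measured in both assays, 130 had mRNA at least 4-fold higher on the high-fat diet. Of those 130, 6 had a promoter called higher, where 39 of all 20891 promoters tested were. Car3 was among 34 of the 130 with a promoter log2 fold change at or below 0. The median promoter log2 fold change was 0.18 over the 130, beside -0.05 over all 12791. A value at or below 0 was thus less common among the 130 than over all genes. Nothing is read from the place of Car3 there, since it was chosen for little promoter difference.

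Car5a, the mitochondrial enzyme, had the next largest difference. Its mRNA level was 17.9, 11.7 and 9.89 CPM on chow and 46.7, 51.6 and 47.1 CPM on the high-fat diet, in replicate order, with no overlap. The log2 fold change was 1.86 (SE 0.20, 95% interval 1.41 to 2.31), a 3.62-fold higher level. As with Car3, chow replicate 1 was the highest chow library, and the value was 2.16 without it. The SD of log2 CPM was 0.44 on chow and 0.08 on the high-fat diet. Promoter H3K27ac was 112.8, 140.3 and 138.3 CPM on chow and 92.3, 143.1 and 112.8 CPM on the high-fat diet. These ranges overlapped, with a log2 fold change of -0.14 (SE 0.12, 95% interval -0.39 to 0.11).

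Car14, the transmembrane enzyme, had a modest difference. Its mRNA level was 26.8, 20.6 and 20.5 CPM on chow and 32.6, 35.3 and 31.5 CPM on the high-fat diet. The diets did not overlap, and the log2 fold change was 0.54 (SE 0.12, 95% interval 0.27 to 0.82), a 1.46-fold higher level. Promoter H3K27ac was 114.2, 112.0 and 126.2 CPM on chow and 80.9, 123.2 and 102.8 CPM on the high-fat diet. The ranges overlapped, with a log2 fold change of -0.18 (SE 0.11, 95% interval -0.41 to 0.05).

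Car8, the related protein without catalytic activity, had mRNA and promoter values that differed in opposite directions. Its mRNA level was 57.8, 59.5 and 54.2 CPM on chow and 83.9, 74.3 and 80.4 CPM on the high-fat diet. The log2 fold change was 0.48 (SE 0.08, 95% interval 0.29 to 0.66), a 1.39-fold higher level with no overlap. Promoter H3K27ac was 64.6, 66.5 and 78.7 CPM on chow and 31.8, 61.5 and 53.3 CPM on the high-fat diet. Here every high-fat-diet library lay below every chow library, which held for 9.79% of the 20891 promoters tested. The promoter log2 fold change was -0.46 (SE 0.14, 95% interval -0.75 to -0.18), a 1.38-fold lower level on the high-fat diet. It was -0.30 (SE 0.11) without high-fat-diet replicate 1 and -0.65 (SE 0.14) without high-fat-diet replicate 2.

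Car2, the fast cytosolic enzyme, was the member whose mRNA overlapped between diets. Its level was 6.84, 5.84 and 5.05 CPM on chow and 2.70, 4.04 and 6.26 CPM on the high-fat diet. The log2 fold change was -0.46 (SE 0.28, 95% interval -1.09 to 0.18), and high-fat-diet replicate 3 lay within the chow range. It was -0.81 without high-fat-diet replicate 3 and -0.22 without high-fat-diet replicate 1. The SD of log2 CPM over the high-fat-diet libraries, 0.59, was above that of 94.4% of tested genes. Promoter H3K27ac was 42.9, 37.3 and 39.3 CPM on chow and 29.8, 40.3 and 37.1 CPM on the high-fat diet, with a log2 fold change of -0.14 (SE 0.14).

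High-fat-diet replicate 1 had the lowest promoter level of the 6 libraries for each of the 5 members, and was also the shallowest promoter library. Promoter libraries held 1967613 to 4964403 counts and mRNA libraries 19016275 to 45741794. By edgeR 0 of 5 member promoters passed an adjusted p of 0.05, where 0.235% of promoters did, 1 (Car8) had an unadjusted p under 0.05, and 0 passed with DESeq2. The median promoter log2 fold change of the members was -0.14. Nothing is read from these counts or from that median, since the choice of members used the promoter values too.

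**Figure D3:**
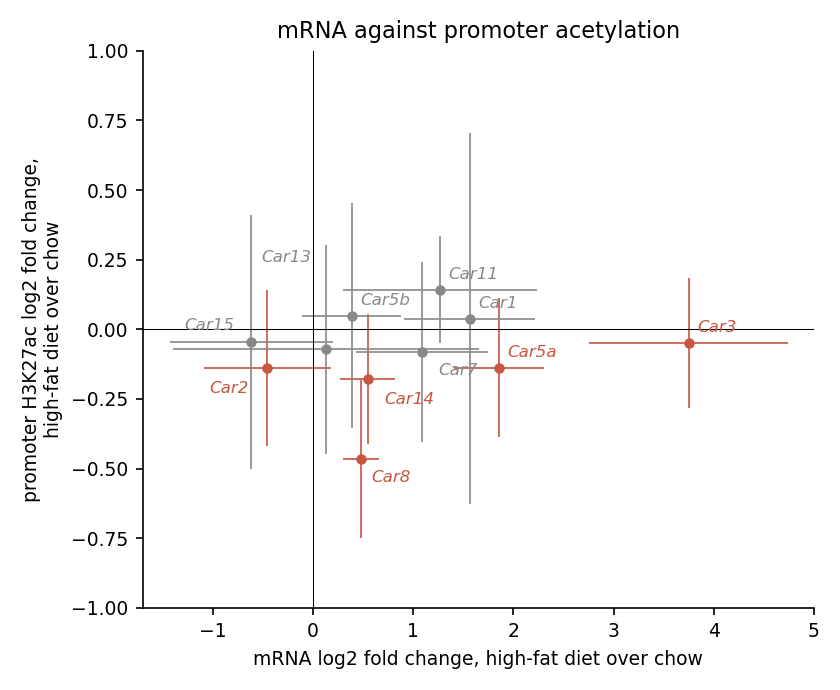
mRNA against promoter H3K27ac log2 fold changes, high-fat diet over chow, for the 5 members (red) and the 6 other carbonic anhydrases tested in both assays (grey), with 95% intervals. Car3 lies at 3.75 and -0.05, and Car8 at 0.48 and -0.46.

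The authors' deposited table gave the same directions for the mRNA of the members. In the authors' deposited table the log2 fold changes were 2.90 (SE 0.40) for Car3, 1.61 (SE 0.19) for Car5a, 0.72 (SE 0.11) for Car8, 0.51 (SE 0.13) for Car14 and -0.44 (SE 0.28) for Car2. No adjusted p is listed there for Car3. Mean levels in the authors' deposited table were not a fixed multiple of those from the per-library counts. Over 13016 genes with a mean count above 10, the ratio was 1.45 at the median, 1.09 at the 5th and 2.05 at the 95th percentile, so that table and these counts differ by more than scale. For promoters the authors' deposited table gave -0.05 (SE 0.13) for Car3 and -0.35 (SE 0.16) for Car8.

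Among the 11 other carbonic anhydrases, mRNA of 6 could be tested, of which 3 rose on the high-fat diet (Car1, Car7 and Car11), 0 fell and 3 did not pass. By edgeR the same 3 genes, and no others, had an unadjusted p under 0.05, and DESeq2 called 1 of them, Car1. Their median log2 fold change was 0.74. Over all genes tested, 18.0% were called higher and 35.6% in either direction. Car1, a cytosolic enzyme best known from red blood cells, had levels of 3.16, 1.72 and 1.40 CPM on chow and 7.51, 6.47 and 5.59 CPM on the high-fat diet. It rose by 1.56 on the log2 scale (SE 0.28, edgeR adjusted p = 0.00407), 2.95-fold, and stayed past the threshold under all 11 alternatives run, with adjusted p up to 0.0228. The red-cell genes Hba-a1, Hba-a2, Hbb-b1 and Hbb-b2 are listed at 0 in all 6 libraries. The erythroid gene Alas2 had 6575 counts over the chow libraries and 7882 over the high-fat-diet libraries. Why the 4 globin genes are at 0 was not tested, and nothing is read from those zeros. Of the 2 erythroid markers tested, Alas2 rose by 0.59 (SE 0.16, edgeR adjusted p = 0.0205). The other, Ermap, lay in the opposite direction at -0.90 (SE 0.31, edgeR adjusted p = 0.051) and was not past the threshold. The summed level of the 10 was 66.8 to 94.4 CPM on chow and 95.5 to 126 CPM on the high-fat diet. Alas2 made up most of that sum, with means of 75.1 CPM on chow and 113 CPM on the high-fat diet. Alas2 was not past the threshold without chow replicate 2 or 3 (0.0876 and 0.0804) or high-fat-diet replicate 2 (0.0737). The part of red cells in the Car1 result was not tested.

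Car7, a cytosolic enzyme, rose by 1.09 (SE 0.29, edgeR adjusted p = 0.0203) from 31 counts over the chow libraries and 57 over the high-fat-diet libraries. Car11, a related protein without catalytic activity, rose by 1.27 (SE 0.42, edgeR adjusted p = 0.0473) from 31 and 61 counts. Both calls rest on few reads. For Car7 the adjusted p was 0.0861, 0.0667 and 0.0538 without chow replicate 1, 2 or 3, 0.082 without high-fat-diet replicate 2 and 0.128 with DESeq2. For Car11 it was 0.0556, 0.137 and 0.13 without chow replicate 1, 2 or 3, 0.122 and 0.0998 without high-fat-diet replicate 1 or 2, 0.085 with DESeq2 and 0.0557 with no filter on low counts.

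The remaining tested genes were not separated between diets. Car5b, the other mitochondrial enzyme, had a log2 fold change of 0.38 (SE 0.21, 95% interval -0.11 to 0.88, edgeR adjusted p = 0.196), with 2.96, 3.27 and 2.15 CPM on chow and 3.92, 4.15 and 2.91 CPM on the high-fat diet. Car13, a cytosolic enzyme, gave 0.13 (SE 0.67, adjusted p = 0.894) and Car15, a membrane-anchored enzyme, -0.62 (SE 0.36, adjusted p = 0.207). The other 5 had too few reads to test. Over the 3 chow and the 3 high-fat-diet libraries, Car4 had 5 and 2 counts, Car9 21 and 28, Car12 2 and 3, and Car10 0 and 8. For Car10 a count of 0 over the chow libraries allows up to 0.0358 CPM (3 counts, counting error only). Car6, the secreted enzyme of saliva, had 0 counts in all 6 libraries, which allows up to 0.0198 CPM. The authors' deposited table lists Car10 with a log2 fold change of 1.46 and an adjusted p of 0.00672. For Car7 the authors' deposited table gives 0.87 with an adjusted p of 0.1003, not past the threshold, and for Car15 it gives 0.12, opposite in sign to the value above (adjusted p of 0.831).

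Promoters of all 11 were tested, and 0 were past the threshold with edgeR. DESeq2 called 0 of the 10 for which it gave an adjusted p, and gave none for Car1. By edgeR 1 of the 11, Car9, had an unadjusted p under 0.05. Its H3K27ac level was 39.6, 40.3 and 43.2 CPM on chow and 49.1, 52.5 and 54.7 CPM on the high-fat diet, without overlap, a separation that 9.73% of promoters showed. The log2 fold change was 0.35 (SE 0.11, edgeR adjusted p = 0.168).

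In RefSeq's order of protein-coding genes, Car13, Car1, Car3 and Car2 follow each other directly on chromosome 3. Their mRNA differed in direction and size. Car1 rose 2.95-fold and Car3 was 13.4-fold higher, while the log2 fold changes of the flanking Car13 (0.13) and Car2 (-0.46) had intervals that included 0. Promoter log2 fold changes along the 4 genes were -0.07, 0.04, -0.05 and -0.14. Beyond Car2, Gm9733 had 1 count on chow and 2 on the high-fat diet, and Sirpb1a had 12 and 10.

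**Figure D4:**
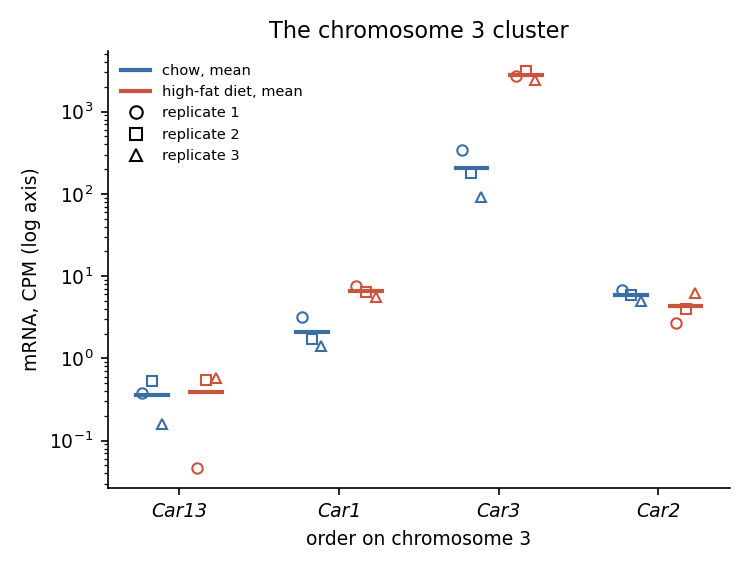
mRNA levels of the 4 neighbouring carbonic anhydrase genes of chromosome 3 in gene order, in CPM on a log axis, each symbol 1 library and each bar the mean of 3. Car1 and Car3 are higher in every high-fat-diet library, while Car13 and Car2 overlap between diets.

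Protein-coding genes next to the other members were measured too. Beside Car8 on chromosome 4, Tox, a nuclear factor of T cells, rose by 0.74 (SE 0.17, edgeR adjusted p = 0.0101). Nsmaf fell by 0.43 (SE 0.09, adjusted p = 0.00704) and Rab2a, a small GTPase of vesicle traffic, fell by 0.33 (SE 0.08, adjusted p = 0.0177). Chd7, a chromatin remodeller, gave 0.02 (adjusted p = 0.892). Beside Car14 on chromosome 3, Aph1a, a gamma-secretase subunit, rose by 0.35 (SE 0.08, adjusted p = 0.0129) and Plekho1 rose by 0.72 (SE 0.19, adjusted p = 0.0187), while Anp32e gave -0.12 (adjusted p = 0.26). Next to Car5a on chromosome 8, Slc7a5, an amino acid transporter, gave 0.07 (adjusted p = 0.847) and Banp 0.21 (adjusted p = 0.35). Leaving out 1 library ended the call for Rab2a (chow replicate 1 or 2, 0.0502 and 0.0611; high-fat-diet replicate 2, 0.0651), Aph1a (chow replicate 2 or 3, 0.0643 and 0.0692) and Plekho1 (chow replicate 1 or 3, 0.0715 and 0.0513; high-fat-diet replicate 2, 0.065).

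Genes that consume bicarbonate were called in both directions. Of 9 enzymes that use it, all tested, 3 rose (Cad, Mccc1 and Pcx), 2 fell (Cps1 and Acacb) and 4 did not pass, with a median log2 fold change of 0.14. Over all genes tested, 18.0% were called higher and 17.6% lower, so the 2 that fell are near the background share. Cps1, which feeds the urea cycle from mitochondrial bicarbonate, fell from 7069 ± 142 to 3090.3 ± 363 CPM (SD, n = 3 each). Its log2 fold change was -1.19 (SE 0.14, edgeR adjusted p = 0.000619). Cad, which begins pyrimidine synthesis, rose by 1.07 (SE 0.13, adjusted p = 0.000647), and Mccc1, a leucine-breakdown carboxylase subunit, rose by 0.43 (SE 0.10, adjusted p = 0.00982). Pcx, which makes oxaloacetate for gluconeogenesis, rose by 0.34 (SE 0.11, adjusted p = 0.0401). Acacb, the mitochondrial-surface acetyl-CoA carboxylase, fell by 0.74 (SE 0.24, adjusted p = 0.0398). The Acacb call was lost on leaving out chow replicate 1, 2 or 3 (adjusted p = 0.0774, 0.124 and 0.0723), high-fat-diet replicate 2 (0.0517), or with total counts (0.105). Pcx was no longer past it without chow replicate 2 or 3 (0.147 and 0.169) or high-fat-diet replicate 2 or 3 (0.107 and 0.0749), and Mccc1 without chow replicate 3 (0.0505).

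Of 12 bicarbonate transporters listed, 7 were tested, 3 rose, 2 fell and 2 did not pass, with a median log2 fold change of 0.25, beside 18.0% of all tested genes called higher and 17.6% lower. Slc26a1, a sulfate and bicarbonate exchanger, rose by 0.61 (SE 0.10, edgeR adjusted p = 0.00264), from 139 ± 14.2 to 212 ± 17.3 CPM (SD, n = 3 each). Slc4a4, a sodium bicarbonate cotransporter, fell by 0.59 (SE 0.11, adjusted p = 0.00376), from 301 ± 19.7 to 199.7 ± 24.2 CPM, and Slc4a7, of the same family, fell by 0.52 (SE 0.12, adjusted p = 0.012). Slc26a6, an anion exchanger, rose by 0.78 (SE 0.21, adjusted p = 0.0215) and Slc4a2, a chloride and bicarbonate exchanger, by 0.25 (SE 0.08, adjusted p = 0.0442). Slc26a6 was not past the threshold without chow replicate 1 or 3 (0.0738 and 0.0737) or high-fat-diet replicate 2 (0.0895), or with DESeq2 (0.0659). Slc4a2 was not past it without chow replicate 2 or 3 (0.156 and 0.164) or high-fat-diet replicate 1, 2 or 3 (0.0695, 0.0842 and 0.077), with DESeq2 (0.109) or with no filter on low counts (0.0648).

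The genes nearest in profile to each member were listed as a description. Likeness was the root-mean-square difference of mean-centred log2 CPM over the 6 libraries, so it reads the diet difference and the spread within diets together. The gene nearest to Car3 was Cyp2d12, a cytochrome P450 (0.28, log2 fold change 3.49). After it came Mettl7a3 (0.39, 4.37), Cfd, the complement protease adipsin (0.40, 3.41), C730036E19Rik (0.46, 4.59) and Gamt, which makes creatine (0.54, 2.91). Nearest to Car5a were Dsg1b, a desmosomal cadherin (0.12, 2.06), Upp2, a uridine phosphorylase (0.13, 1.77), and Syt3 (0.13, 1.62). The nearest genes were Klc4, Otud1 and Hps5 for Car8, 9130023H24Rik, Rd3 and Ppard for Car14, and Sema3c, Fam164a and Gm13139 for Car2, each within 0.13. Within 0.5 lay 10485 genes for Car8, 9615 for Car14 and 6446 for Car2, beside 349 for Car5a and 4 for Car3. Small distances were thus common for the members with small differences.

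Liver identity of the libraries was checked on marker genes. The 10 hepatocyte genes summed to 115025 to 122247 CPM on chow and 114896 to 139342 CPM on the high-fat diet, and 2 of 10 rose and 1 fell. Alb made up most of that sum, with means of 65147.5 CPM on chow and 68408.4 CPM on the high-fat diet. Markers of hepatocytes around the central vein summed to 12067 to 15048 CPM on chow and 14839 to 18458 CPM on the high-fat diet. These ranges overlapped, and 5 of 10 rose and 1 fell. Most of that sum was Cyp2e1 (means of 9488 and 12501 CPM), which was not called (edgeR adjusted p = 0.111). Markers around the portal vein summed to 7949 to 9671 and 7264 to 8589 CPM, also with overlap (2 of 10 rose, 6 fell). The share of all tested genes called was 18.0% higher and 17.6% lower. Kupffer cell markers overlapped between diets too (228 to 423 and 280.4 to 519 CPM), as did bile duct markers (49.8 to 63.9 and 50.2 to 75.8 CPM). The part of these differences in the carbonic anhydrase values was not tested.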

How the data were processed

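Whole-gene mRNA counts per library and H3K27ac counts per gene promoter are used as deposited by the authors. The submitters' processing notes list TopHat 1.4.0, HTSeq, DESeq2 1.0.18 and bedtools for mRNA, Bowtie 0.12.7 and MACS 1.4.0rc2 for chromatin, and build mm9. The authors' deposited tables also give log2 fold changes, a signal averaged over libraries and adjusted p-values. Whether those log2 values were shrunken is not given in the sources used here. In the deposited normalized mRNA table, 6 columns were not matched to a sample and were not used.

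Counts were filtered with filterByExpr, scaled by TMM and tested with edgeR 4.0.16 (quasi-likelihood, diets of 1 assay only, Benjamini-Hochberg over all features tested, threshold 0.05), in R 4.3.3. DESeq2 1.42.0, other scalings, no filter, a replicate block and leaving out each library were alternatives. The fit was tested on simulated data. Replicate pairs all differed beyond sampling noise. Named are the members, the other carbonic anhydrases, up to 4 called genes per bicarbonate list by size, and the nearest profiles, 5 for Car3 and 3 for each other member. Slc4a2, Pcx, the adjoining genes and the marker genes named singly fall outside that rule. Of these, Slc4a2, Pcx, Lipe, Aqp7, Retn, Alas2, Ermap, Cyp2e1 and Alb were chosen after their values were seen. The members and gene lists were chosen with earlier results of these data known. Transcript lengths were not used here, so levels are not compared between genes. H3K4me1 and peak files were not used here, because no mm9 annotation was at hand to place peaks at genes.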

Additional observations from a re-analysis of the deposited data

How the results depend on the processing

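Car3, Car5a, Car8 and Car14 mRNA was higher, and Car8 promoter H3K27ac lower, on the high-fat diet under all 11 alternatives run. The Car8 promoter was past the threshold in none of them. Nothing is read from these constant directions, since the fits reuse the values by which the members were chosen. Genes called in mRNA, 4590 with all libraries, ranged from 2899 (without chow replicate 2) to 5163 (without high-fat-diet replicate 1). Promoters called, 49 with all libraries and 37 with DESeq2, numbered 1, 0 and 7 without chow replicate 1, 2 or 3 and 95, 736 and 8 without high-fat-diet replicate 1, 2 or 3, so the range was 0 to 736. Where edgeR called 0, 2431 promoters had an unadjusted p under 0.05; the cause was not tested. With the replicate number as a block, 4462 genes and 470 promoters were called. Same-numbered libraries of the diets correlated in their deviations by 0.04, -0.04 and 0.14 (mRNA) and 0.09, -0.01 and 0.04 (promoters), not all over 0.1, and not every library correlated best with its own number, so the numbers are not taken as pairs. Among the genes named, the block also ended the calls of Car7, Slc4a2, Pcx and 9130023H24Rik (adjusted p = 0.0532, 0.051, 0.0675 and 0.0588). With 3 libraries a diet and 1967613 counts in the shallowest promoter library, small promoter differences are not resolved. Among planned analyses, peak comparisons near these genes were not run, and each gene had a single promoter in the table, so another promoter could not be tried.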
